A study of Mus musculus with 4 samples.

Results

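The genes described here are 36 mouse genes read as the ATF4 and aminoacyl-tRNA synthetase programme, out of 27998 genes in the tables. They were chosen by name, with earlier results of these data known. They comprise 19 cytoplasmic aminoacyl-tRNA synthetases, 5 transcription or signalling regulators (Atf4, Atf5, Ddit3, Cebpb, Trib3), 3 stress effectors (Ddit4, Sesn2, Chac1), 6 enzymes of amino acid or one-carbon synthesis (Asns, Psat1, Phgdh, Shmt2, Mthfd2, Aldh18a1) and 3 amino acid transporters (Slc7a11, Slc3a2, Slc7a5). All 36 were found in the gene tables. The cells were lymphoid-primed multipotent progenitors (LMPPs), taken from C57BL/6 mouse bone marrow by cell sorting and sequenced as single cells with 10X Genomics chemistry, 1 library for each of 4 groups. In the control group RBPJ, the DNA-binding partner of Notch, was expressed throughout. The uninduced group is labelled as lacking RBPJ. The remaining pair started without RBPJ and received doxycycline to switch it on, for 3 days or for 6 days, as an intraperitoneal dose at 2 mg/ml followed by drinking water at 1 mg/ml. The labels attach that treatment text to all 4 samples, and they do not say whether control or uninduced mice were given doxycycline, how many mice were pooled, or which promoter drives RBPJ.

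The libraries held 1292 to 2769 cells, 8883 in all, with 10647894 to 23504158 unique molecular identifiers (UMIs, one per captured transcript) and a median of 6774 to 7920 UMIs per cell. Levels are given as CPM, a gene's UMIs scaled to a common library total, summed over the cells of a library. Rbpj itself was at 17.8 CPM in the control, 11.2 CPM in the uninduced, 508 CPM in the 3-day and 485 CPM in the 6-day library. Rbpj transcript was thus still counted in the library labelled as lacking RBPJ, and the labels do not say what was deleted. The LMPP markers were present in every library, with Flt3 at 191 to 223 CPM, Cd34 at 411 to 484 CPM and Kit at 44.2 to 60.8 CPM. Cells scored on marker lists of other lineages made up 0.297% to 1.69% of a library, and the T cell marker Cd3e and the basophil or mast cell markers Prss34, Ms4a2 and Fcer1a were at 0 in every library. Other markers of those lists were counted. The T and natural killer cell list summed to 152 to 191 CPM and the basophil or mast cell list to 13.7 to 17.0 CPM. Neutrophil markers summed to 959 to 4077 CPM and erythroid markers to 292 to 861 CPM. Any pair of libraries shared 2 to 17 cell barcodes, where 3.73 to 10.1 would be shared by chance. With 1 library a group, no difference between groups has a replicate check. Intervals on levels and ratios are 95% exact intervals and cover counting error only.

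ATF4 is the central transcription factor of the integrated stress response. When kinases phosphorylate the initiation factor eIF2, most translation slows while Atf4 messenger RNA is translated better, so Atf4 RNA is not a measure of ATF4 protein. ATF4 binds composite C/EBP and ATF elements and switches on amino acid transporters, enzymes of serine, glycine, proline and asparagine synthesis, and many of the synthetases that join amino acids to their transfer RNAs. LMPPs are multipotent progenitors that give rise to lymphoid and some myeloid cells.

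The composite element was searched for as TGATGNAA, on both strands, in the 250 bases before the start of each RefSeq gene (GRCm38.p6), because it is the sequence through which ATF4 and its C/EBP partners are known to act. A promoter was on record for 28 of the 36 genes, and 6 of those 28 (21.4%) held a match, against 1056 of 27025 genes (3.91%). The windows of 5 of these genes, Gars, Tars, Chac1, Asns and Slc7a11, are shown to make the matched letters visible, in gene orientation, with the match in capitals. Slc7a11 had a match on each strand, and its windows overlap. A match is a description of the letters and not of binding, and the absence of one says only that these letters are not in the window.
Gars, chr6:55037960-55037989, plus strand: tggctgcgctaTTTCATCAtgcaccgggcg
Tars, chr15:11399659-11399684, minus strand: caggagtcccgTTGCATCAgctggtt
Chac1, chr2:119351038-119351067, plus strand: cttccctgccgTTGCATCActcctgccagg
Asns, chr6:7693214-7693243, minus strand: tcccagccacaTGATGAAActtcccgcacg
Slc7a11, chr3:50443661-50443690, minus strand: tctcatgtggcTGATGCAAacctggagaat
Slc7a11, chr3:50443642-50443671, minus strand: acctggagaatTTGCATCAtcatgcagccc

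Of the 5 genes shown, Gars, Tars and Asns rose in S-high cells (defined further on), where 24 of the 33 tested genes rose. The Tars rise passed in only 4 of 14 alternative fits. Chac1 was almost undetected, and Slc7a11 had its highest levels in the cells low for cell cycle genes.

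Across the 4 libraries the whole programme was expressed at similar levels. The 36 genes summed to 1630 CPM in the control, 1551 CPM in the uninduced, 1677 CPM in the 3-day and 1451 CPM in the 6-day library. Of these genes, 29 reached 10 CPM in at least 1 library, among them all 19 synthetases. The 7 under 10 CPM in every library were Atf5, Trib3, Ddit4, Sesn2, Chac1, Asns and Slc7a11, which include 2 of the 5 regulators and all 3 effectors.

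**Figure D1:**
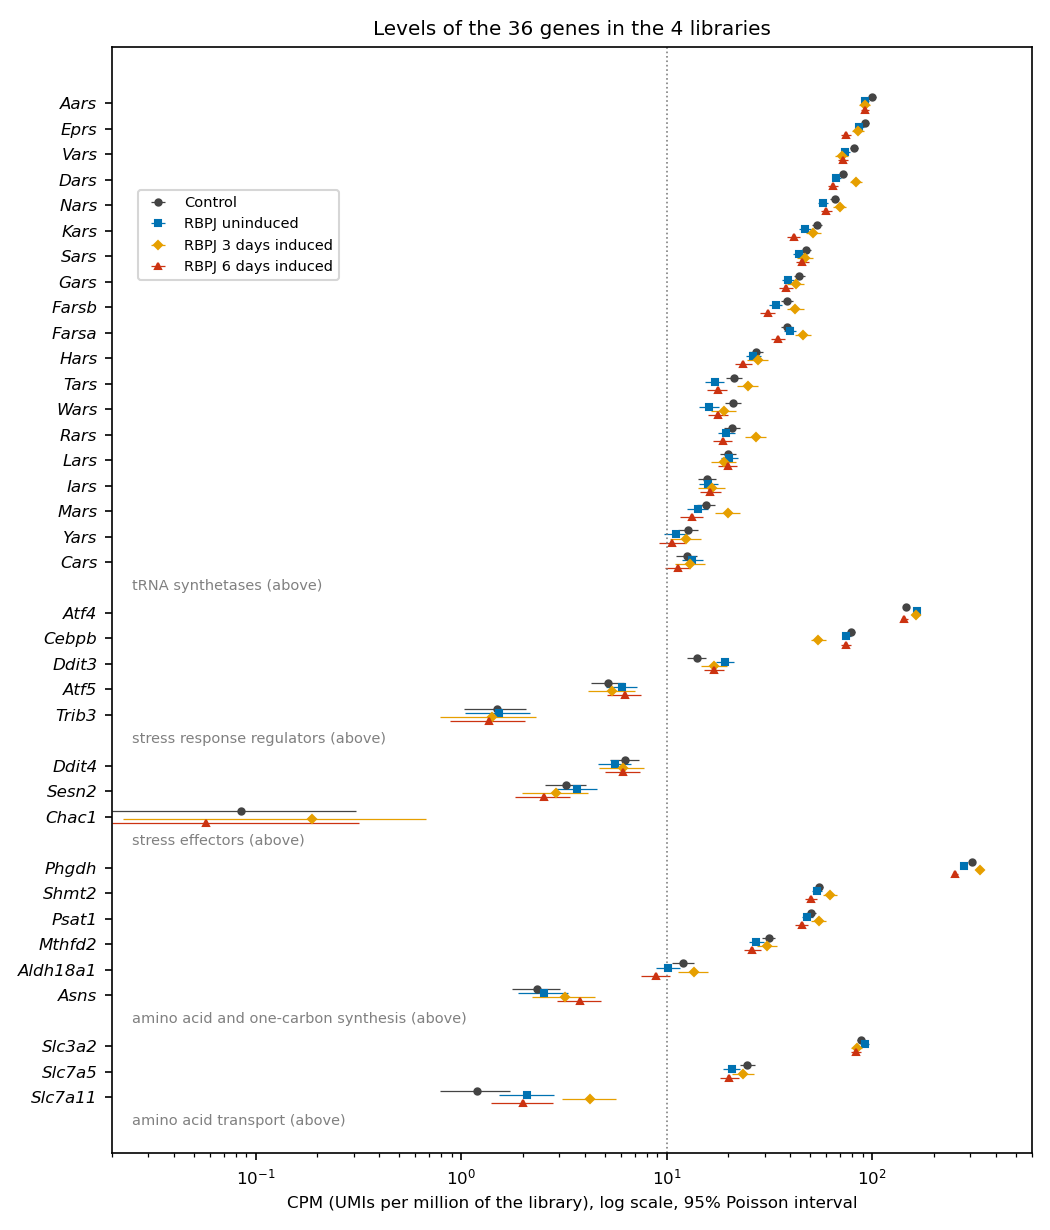
Level of each of the 36 genes in the 4 libraries, in CPM on a log axis, with 95% Poisson intervals; the dotted line marks 10 CPM, and Chac1 in the uninduced library, at 0, is not drawn. For most genes the 4 points lie close together, and Slc7a11 has the widest separation among genes with more than 20 UMIs in every library.

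Among the regulators, Atf4 was at 146 CPM (141 to 151) in the control, 166 CPM (160 to 172) in the uninduced, 164 CPM (156 to 172) in the 3-day and 144 CPM (138 to 149) in the 6-day library. The uninduced and 3-day intervals overlapped, as did the control and 6-day intervals, and the uninduced to control ratio was 1.14 (1.08 to 1.19). Ddit3, which encodes the stress factor CHOP, was at 14, 19.3, 17.1 and 17.0 CPM in the same order. Its uninduced to control ratio of 1.38 (1.19 to 1.60) was the highest among the genes at 10 CPM or more in that comparison. Cebpb, whose protein pairs with ATF4 at composite elements, was at 78.8, 75.0, 54.8 and 74.8 CPM, so that the 3-day library stood below the other 3. Its 3-day to uninduced ratio was 0.730 (0.663 to 0.804). Atf5, another factor of the response, was at 5.19, 6.06, 5.45 and 6.24 CPM, and Trib3, a pseudokinase that restrains ATF4, at 1.49, 1.53, 1.41 and 1.38 CPM.

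The effectors were scarce in every library. Ddit4, an inhibitor of mTORC1, was at 5.63 to 6.25 CPM, and Sesn2, a leucine-sensing mTORC1 inhibitor, at 2.52 to 3.67 CPM. Chac1, which degrades glutathione, had 2, 0, 2 and 1 UMIs in the control, uninduced, 3-day and 6-day libraries; the count of 0 allows a level of up to 0.143 CPM by a limit of 3 counts, and up to 0.176 CPM by the exact interval.

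Among the synthetases, summed levels were 803 CPM in the control, 736 CPM in the uninduced, 812 CPM in the 3-day and 705 CPM in the 6-day library. Tars, the threonyl synthetase, was at 21.4, 17.1, 24.8 and 17.7 CPM, with a 3-day to uninduced ratio of 1.45 (1.23 to 1.70). Wars, the tryptophanyl synthetase, was at 21.1, 16.1, 19.1 and 17.8 CPM, with an uninduced to control ratio of 0.763 (0.662 to 0.878), the lowest of the 19. The control and 3-day libraries were the higher pair for both enzymes. Yars, the tyrosyl synthetase, was at 12.8, 11.1, 12.4 and 10.7 CPM, and its uninduced to control ratio of 0.868 had an interval that included 1 (0.728 to 1.03). The synthetases with the highest uninduced to control ratios, Lars (19.9, 20.2, 19.0 and 19.8 CPM), Farsa (38.7, 39.9, 46.2 and 35.0 CPM) and Cars (12.6, 13.4, 13.1 and 11.3 CPM), each had an interval that included 1. Lars charges leucine, Cars cysteine, and Farsa is a subunit of the phenylalanyl enzyme.

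Mars and Rars, the methionyl and arginyl synthetases, were chosen after their values were seen. Mars was at 15.6, 14.2, 19.8 and 13.2 CPM and Rars at 20.8, 19.6, 27.1 and 18.7 CPM, each with its highest level in the 3-day library. Their 3-day to uninduced ratios were 1.4 (1.17 to 1.67) and 1.39 (1.19 to 1.62). Mars and Ddit3 overlap on opposite strands only at their ends, between bases 127296221 and 127296288 of chromosome 10. Whether counting used strand is not given in the sources used here, so reads within that stretch may not be told apart.

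The synthesis and transport genes summed to 571, 538, 613 and 495 CPM in the control, uninduced, 3-day and 6-day libraries. Psat1, which makes phosphoserine, was at 50.6, 48.4, 55.0 and 45.4 CPM. Mthfd2, the mitochondrial one-carbon enzyme, was at 31.4, 27.3, 30.9 and 26.2 CPM. Slc7a5, the large neutral amino acid transporter, was at 24.8, 20.8, 23.7 and 20.2 CPM. In each of these 3 genes the 6-day library was the lowest, and the libraries differed by less than 1.5-fold. Asns, asparagine synthetase and the textbook ATF4 target, was at 2.34, 2.53, 3.19 and 3.78 CPM, with a 6-day to uninduced ratio of 1.49 (1.03 to 2.19). That ratio rests on 66 and 53 UMIs, of which 10 cells held 28.8% and 18.9%, and its interval does not cover such unevenness.

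Slc7a11, the cystine importer, had the widest ratios of the 36, although it stayed under 10 CPM. It was at 1.19 CPM (0.792 to 1.72) in the control, 2.10 CPM (1.53 to 2.82) in the uninduced, 4.23 CPM (3.08 to 5.65) in the 3-day and 2.01 CPM (1.4 to 2.79) in the 6-day library. The 3-day level was 3.55 (2.17 to 5.91) times the control level and 2.01 (1.30 to 3.12) times the uninduced level. These levels rest on 28 to 45 UMIs a library, and 10 cells held 38.6% to 62.9% of them. The intervals do not cover that unevenness between cells.

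No gene of the 36 that reached 10 CPM in either library of a pair differed by 1.5-fold or more (on CPM + 1) in any of the 6 pairs of libraries. Over all genes at 10 CPM, the share past that size in either direction was 1.45% for uninduced against control, 1.31% for 3-day against uninduced and 1.04% for 6-day against uninduced. It was 2.30% for 3-day against control, 0.760% for 6-day against control and 2.08% for 6-day against 3-day. A count of 0 among 29 genes is close to such shares. Within single cell cycle classes, defined further on, some genes did pass. In S-high cells Rars (0.66), Aldh18a1 (0.69) and Ddit3 (−0.74) passed for 3-day against uninduced, and Ddit3 (1.03), Rars (−0.61) and Aldh18a1 (−0.80) for 6-day against 3-day, as log2 ratios of 29 genes, beside 3.21% and 5.39% of all genes. These class values rest on fewer UMIs.

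**Figure D2:**
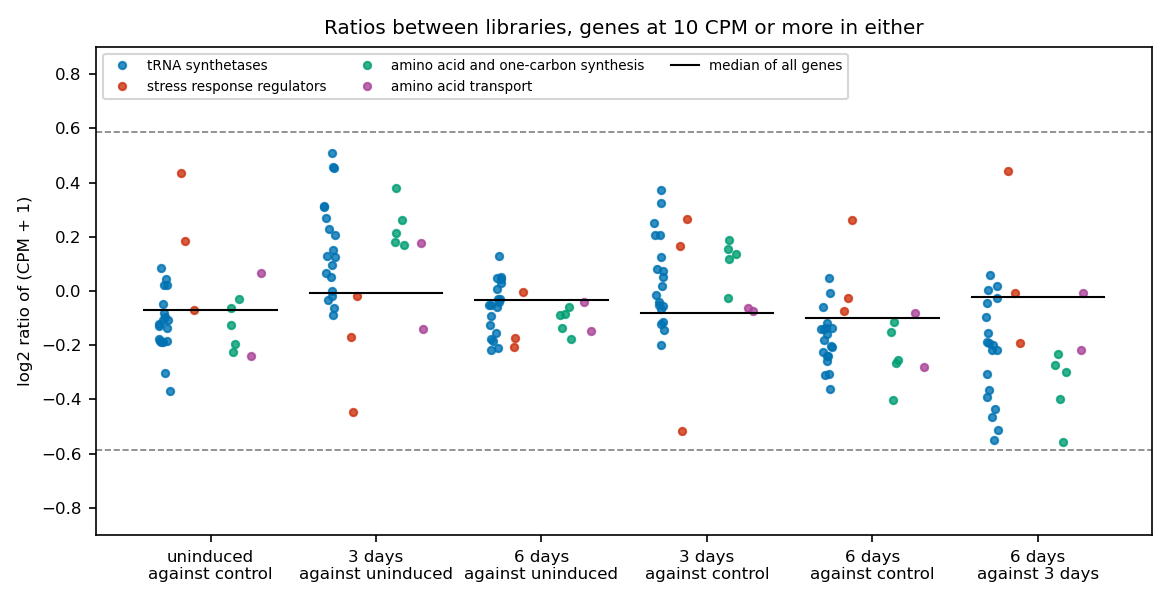
Log2 ratio of CPM + 1 for each gene at 10 CPM or more, by role, in the 6 pairs of libraries; dashed lines mark 1.5-fold and the black bar is the median of all genes. No point passes the dashed lines, and the widest ratio is −0.56 for Aldh18a1, 6-day against 3-day.

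At the smaller size of 1.2-fold the 3-day library stood apart. Against the uninduced library, 7 genes were higher and 1 lower, beside backgrounds of 5.97% and 8.12%. The 7 were 6 synthetases (Tars, Mars, Rars, Dars, Farsb and Nars) and Aldh18a1, which makes a proline precursor, and the lower gene was Cebpb. The 6-day library held 1 gene higher and 11 lower than the 3-day library (backgrounds 9.58% and 9.38%), 7 of the 11 being synthetases, and it held none in either direction against the uninduced library (3.83% and 4.47%). For uninduced against control the counts were 1 higher and 2 lower (2.92% and 10.1%), for 3-day against control 3 and 1 (3.56% and 18.4%), and for 6-day against control 0 and 6 (1.91% and 10.4%). These comparisons share libraries, so a single high or low library enters 3 of them. The genes called at this size were chosen by their values and none of the differences has a replicate.

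Synthetases and the synthesis and transport genes were compared as lists. The summed synthetase level in the 3-day library was 1.1 (1.07 to 1.13) times that in the uninduced library, and that of the synthesis and transport genes 1.14 (1.11 to 1.18) times. Against the control, the uninduced ratios were 0.916 (0.897 to 0.936) and 0.941 (0.918 to 0.965). The median log2 ratio of each list less that of all genes was −0.05 and −0.06 for uninduced against control, 0.14 and 0.19 for 3-day against uninduced, and −0.02 and −0.06 for 6-day against uninduced. In 3-day against control and in 6-day against 3-day, the lists' summed ratios, with Phgdh included, were further apart than their counting intervals. They were 1.01 (0.985 to 1.04) for synthetases and 1.07 (1.04 to 1.11) for synthesis and transport in 3-day against control, and 0.868 (0.844 to 0.892) and 0.808 (0.782 to 0.834) in 6-day against 3-day. Phgdh alone held 336 of the 613 CPM of synthesis and transport in the 3-day library, and 254 of the 495 CPM in the 6-day library. Part of the Phgdh signal is uncertain, as described further on. The ratio of Phgdh itself was above both summed ratios in 3-day against control, and below both in 6-day against 3-day. The sums without Phgdh were not compared. The gap is thus shown only for lists that include Phgdh, and it may rest on that gene. Some related lists, described further on, moved about as far in 3-day against uninduced. Their medians less all genes were 0.14 for mitochondrial synthetases, 0.13 for growth genes linked to MYC and 0.12 for G2/M-phase genes. The median was 0.01 for genes of eIF2 and its control, 0.01 for further ATF4 targets and 0.0009 for further genes of the multi-synthetase complex. Other gene lists moved more between the same libraries. Of 14 immediate-early genes at 10 CPM, 7 were at least 1.5-fold higher in the uninduced than in the control library (0.691% of all genes), and 6 of 7 heat shock genes were higher by that size in the 3-day than in the uninduced library (0.466%). Hspa1a, an inducible chaperone, was at 10.8, 56.5, 448 and 18.9 CPM. The part of any of these other lists in the differences of the 36 genes was not tested.

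Variation from cell to cell could be read only coarsely. In cells thinned to 4700 UMIs, the variance divided by the mean (the Fano factor, 1 for Poisson counts) had a median of 1.03 to 1.05 over 28 genes at 10 CPM in every library, against 1.02 to 1.03 over all such genes. The highest values were 1.32 and 1.30 for Cebpb, in the control and 6-day libraries, and 1.38 and 1.37 for Phgdh, in the uninduced and 3-day libraries. Most of these genes have few UMIs in a thinned cell, where the factor stays near 1 even if cells differ: for Mthfd2, which differed several-fold between cell cycle classes, it was 1.09 to 1.18. RNA outside cells was read from barcodes with 10 to 100 UMIs. The median cell to outside ratio of the 28 genes was 0.955 to 1.01, with single genes from 0.491 to 2.25. Atf4 was higher outside, at 229.8 to 256 CPM, than in cells.

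Between cell cycle classes the genes differed by more: log2 changes reached 2.78, against 0.56 at most between libraries among genes at 10 CPM. Cells thinned to 4700 UMIs (7278 cells, the shallower ones left out) were classed by the summed UMIs of 40 S-phase and 52 G2/M-phase genes, none of which is among the 36. G2/M-high cells made up 18.9% to 21.1% of a library, S-high cells 29.2% to 33%, and cells low for both sets 21.9% to 28.5%. The classes are ranges of a score and not cell types: 50 to 147 cells of the low and S-high classes, and 4 to 13 of the G2/M-high class, lay within 1 UMI of a threshold in a library. Doublets were kept. UMIs were then summed per library and class, and edgeR's quasi-likelihood test, with the library as a block and 10339 genes tested, compared the classes. The 4 libraries are the only replication, so its p-values measure how alike a contrast is in them. Of the 36 genes 33 could be tested, since Trib3, Chac1 and Slc7a11 were too low.

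In S-high cells, 24 of the 33 genes rose and 5 fell relative to low cells, beside 28.0% and 26.5% of all genes. In G2/M-high cells, 21 rose and 5 fell, beside 23.8% and 22.7%. The counts of genes that fell were thus below the shares of all genes in both classes. All synthetases and synthesis or transport genes that passed this test rose, and all regulators and effectors that passed fell. The transporter Slc7a11, too low for this fit, fell in both fits that could test it. Trib3 could be tested in 1 alternative edgeR fit, with no filter on low counts. It fell there in G2/M-high cells (log2 −2.15, adjusted p = 0.00196) and did not pass in S-high cells (−0.61, adjusted p = 0.375). Those values rest on few UMIs, 15 to 35 in a whole library. Chac1 passed in neither class of that fit. For synthetases 16 of 19 rose in S-high and 14 of 19 in G2/M-high cells. All 6 synthesis genes rose in S-high and 5 of 6 in G2/M-high cells, as did both tested transporters in both classes. Of the 4 tested regulators 3 fell in each class, and both tested effectors fell in both.

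**Figure D3:**
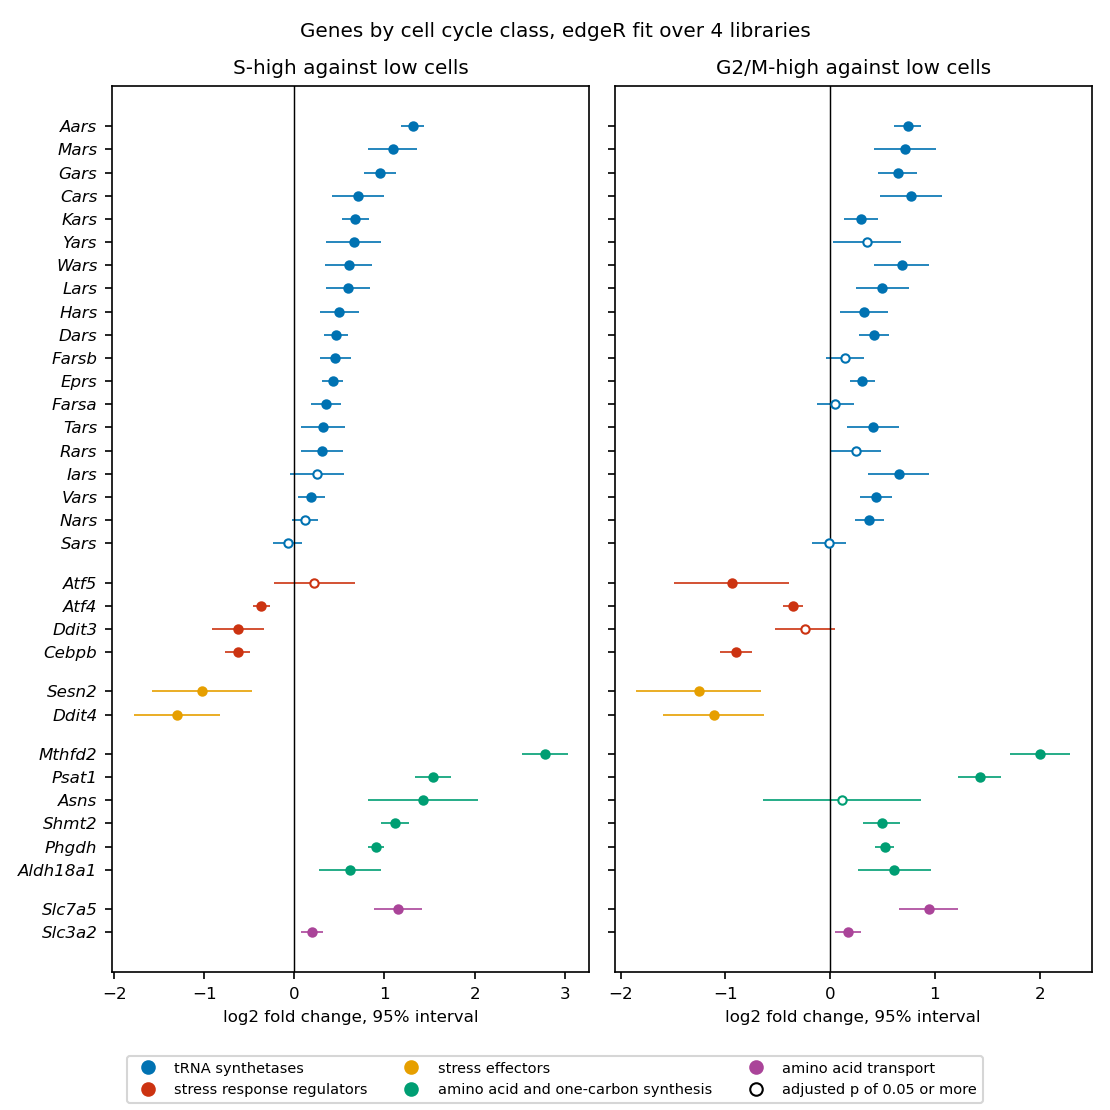
Log2 fold change with its 95% interval for the 33 tested genes in S-high and G2/M-high cells relative to low cells, from edgeR's quasi-likelihood test over 4 libraries; filled points have an adjusted p under 0.05. Mthfd2 is farthest to the right (2.78 and 2.00), and Ddit4, Sesn2 and Cebpb are to the left in both panels.

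Mthfd2 and Psat1, both synthesis genes, had the highest log2 changes in both classes. Mthfd2 was at 7.46, 7.96, 6.82 and 5.41 CPM in the low cells of the control, uninduced, 3-day and 6-day libraries, at 50.5, 45.2, 54.3 and 43.6 CPM in S-high cells and at 31.4, 29.7, 25.5 and 29.6 CPM in G2/M-high cells. Every S-high and G2/M-high value lay above every low value. It rose 6.86-fold in S-high cells (log2 2.78 ± 0.13 SE, adjusted p = 6.94e-19) and 4.01-fold in G2/M-high cells (2.00 ± 0.15, adjusted p = 1.44e-13). Mitochondrial one-carbon metabolism, of which Mthfd2 is a step, supplies formate for purine and thymidylate synthesis. Psat1 was at 16.2 to 28.8 CPM in low cells, 59.6 to 77.4 CPM in S-high cells and 62.5 to 65.7 CPM in G2/M-high cells, again without overlap. Its rise was 2.90-fold in S-high cells (log2 1.54 ± 0.10, adjusted p = 6.57e-15) and 1.43 ± 0.10 on the log2 scale in G2/M-high cells (adjusted p = 1.17e-13).

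Phgdh, the first enzyme of serine synthesis, was at 175 to 248 CPM in low, 329 to 424 CPM in S-high and 275 to 344 CPM in G2/M-high cells, with log2 changes of 0.90 and 0.52. Part of the Phgdh signal is uncertain, because 55.1% of the 31-base words at the end of its transcript occur in other genes. Shmt2, which makes glycine in mitochondria, changed by log2 1.12 in S-high and 0.49 in G2/M-high cells. Asns was at 1.27 to 2.13 CPM in low and 3.26 to 7.60 CPM in S-high cells, and rose there by log2 1.43 ± 0.31 (adjusted p = 0.000226). In G2/M-high cells Asns was at 1.46 to 2.84 CPM, and its log2 change of 0.12 did not pass (adjusted p = 0.833). Slc7a5 was at 10.5 to 19.8 CPM in low, 26.1 to 28.2 CPM in S-high and 20.1 to 29.6 CPM in G2/M-high cells. The Slc7a5 rise was 1.15 ± 0.14 on the log2 scale in S-high cells (adjusted p = 1.03e-08) and 0.94 ± 0.14 in G2/M-high cells (adjusted p = 1.48e-06). Slc3a2, the heavy chain that carries Slc7a5 to the membrane, rose by 0.19 ± 0.06 and overlapped low cells in both classes (adjusted p = 0.0102 in S-high cells).

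Among synthetases Aars led in S-high cells. This alanyl enzyme was at 52.3, 49.4, 54.5 and 58.6 CPM in low, 138, 127, 129 and 134 CPM in S-high and 101, 94.1, 85.6 and 90.4 CPM in G2/M-high cells. The 3 classes did not overlap. Aars rose by log2 1.31 ± 0.06 in S-high cells (adjusted p = 1.76e-18) and 0.74 ± 0.07 in G2/M-high cells (adjusted p = 4.15e-11). Its terminal 31-base words are shared with Exosc6 to 17.1%. Mars followed in S-high cells, at 8.59 to 11.5 CPM in low and 18.5 to 27.5 CPM in S-high cells (log2 1.09, adjusted p = 3.94e-08). Gars, the glycyl enzyme, came next at 0.95. Cars led in G2/M-high cells with 0.77 ± 0.15 (adjusted p = 7.39e-05), at 14 to 16.8 CPM against 7 to 10.9 CPM in low cells.

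The synthetases did not all move. Sars, the seryl enzyme, was at 42.7, 46.8, 56.6 and 48.1 CPM in low, 47.1, 42.5, 45.6 and 44.4 CPM in S-high and 48.3 to 50.1 CPM in G2/M-high cells. Its log2 changes were −0.07 (adjusted p = 0.476) and −0.01 (adjusted p = 0.984), with overlapping ranges. Iars (0.25, adjusted p = 0.176) and Nars (0.12, adjusted p = 0.172), the isoleucyl and asparaginyl enzymes, did not pass in S-high cells, while both rose in G2/M-high cells, by 0.66 and 0.37. Yars, Rars, Farsa and Farsb did not pass in G2/M-high cells, with log2 changes of 0.05 to 0.35.

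**Figure D4:**
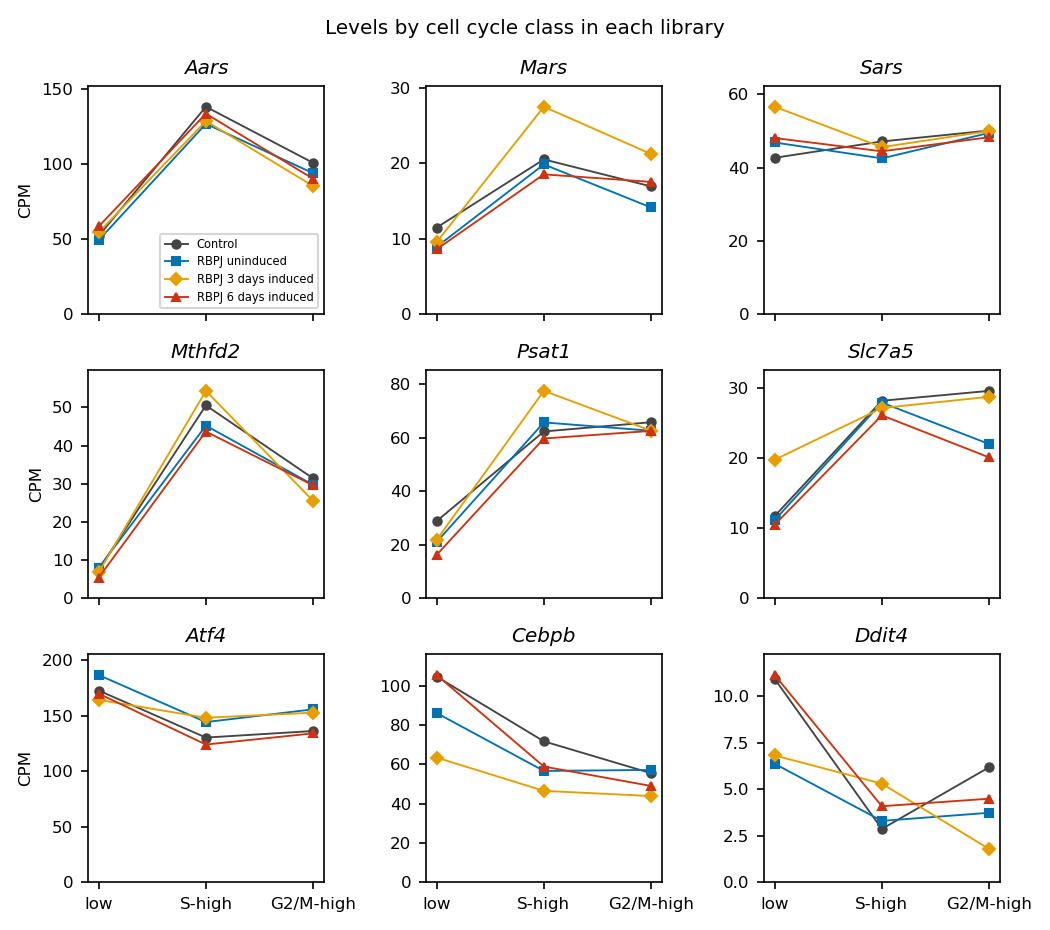
CPM of 9 genes in low, S-high and G2/M-high cells, with 1 marker for each of the 4 libraries. Aars, Mars, Mthfd2, Psat1 and Slc7a5 are lowest in low cells, Sars shows no separation, and Atf4, Cebpb and Ddit4 are highest in low cells.

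Of the 4 tested regulators, 3 took the opposite direction in each class. Atf4 was at 173, 187, 164 and 170 CPM in low, 130, 144, 148 and 124 CPM in S-high and 136, 156, 153 and 134 CPM in G2/M-high cells. All low values lay above all others, and Atf4 fell by 0.37 ± 0.05 on the log2 scale in S-high cells (adjusted p = 4.38e-08) and 0.35 ± 0.05 in G2/M-high cells (adjusted p = 1.42e-07). Cebpb was at 63.4 to 105 CPM in low, 46.5 to 71.7 CPM in S-high and 43.9 to 57.1 CPM in G2/M-high cells. It fell by 0.63 ± 0.07 in S-high cells (adjusted p = 4.22e-09) and 0.90 ± 0.08 in G2/M-high cells (adjusted p = 5.32e-12). Ddit3 fell by 0.63 ± 0.15 in S-high cells (adjusted p = 0.000596) and in G2/M-high cells had a log2 change of −0.24 (adjusted p = 0.175). The S-high change of Atf5 was 0.22 (adjusted p = 0.431), and it fell by 0.94 ± 0.28 in G2/M-high cells (adjusted p = 0.00577), from 4.77 to 8.26 CPM in low cells to 2.16 to 4.97 CPM.

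Both tested effectors fell with them. Ddit4 was at 10.9, 6.37, 6.82 and 11.1 CPM in low cells and at 2.87 to 5.31 CPM in S-high cells, and fell by 1.31 ± 0.24 there (adjusted p = 3.05e-05) and by 1.11 ± 0.25 in G2/M-high cells (adjusted p = 0.000328). Sesn2 was at 3.5 to 5.87 CPM in low, 1.96 to 2.70 CPM in S-high and 1.79 to 2.37 CPM in G2/M-high cells. Its falls were −1.02 ± 0.28 (adjusted p = 0.00264) and −1.26 ± 0.30 (adjusted p = 0.000876) as log2 changes. Slc7a11, not in this fit, was at 1.60, 3.19, 8.18 and 2.86 CPM in low cells against 0.914, 1.5, 1.87 and 1.17 CPM in S-high cells, lower in each library. In the 2 alternative fits that kept it, with no filter on low counts or with classes from full UMIs, its log2 change was −1.29 and −1.42 in S-high and −2.56 and −3.35 in G2/M-high cells, and the highest adjusted p was 0.00446.

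Compared with one another, S-high and G2/M-high cells differed for 17 of the 33 genes, a contrast chosen after the data were seen. That count is near the 48.6% share of all genes, which was not split by direction. In G2/M-high cells 4 genes were higher than in S-high cells (Iars 0.41, Ddit3 0.38, Nars 0.26 and Vars 0.25 on the log2 scale) and 13 lower. The largest differences were in Asns (−1.31, adjusted p = 9.46e-05), Atf5 (−1.16, adjusted p = 0.0001), Mthfd2 (−0.77), Shmt2 (−0.63) and Aars (−0.57, adjusted p = 2.97e-11), all by edgeR's quasi-likelihood test.

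As lists, the synthesis and transport genes stood further from low cells than the synthetases. The median log2 change less that of all genes was 1.16 for synthesis and transport and 0.48 for synthetases in S-high cells, and 0.58 and 0.42 in G2/M-high cells. Summed synthetase levels were 570 to 637 CPM in low, 796 to 917 CPM in S-high and 792 to 892 CPM in G2/M-high cells. Summed synthesis and transport levels were 322 to 417, 635 to 793 and 537 to 630 CPM. Neither list's low cells overlapped the other classes, and the difference between the lists was not tested.

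Several measures moved with the classes. Median UMIs per cell were 5719 to 5879.5 in low, 9116 to 9797 in S-high and 10914 to 12529.5 in G2/M-high cells. Within each class of each library, the deeper cells had the higher summed CPM of synthesis and transport genes in 12 of 12 comparisons (ratio 1.12 to 1.38) and of synthetases in 11 of 12 (0.997 to 1.26). The summed CPM of Atf4, Cebpb, Ddit3, Ddit4 and Sesn2 was lower in the deeper cells in 12 of 12 (0.715 to 0.894). GMP (granulocyte and monocyte progenitor) markers rose for 4 of 5 in both classes. Immediate-early genes, which respond to stimulation and handling, fell in S-high cells in 15 of 15 cases and in G2/M-high cells in 13 of 15. Their sum was 5541 to 8965 CPM in low and 3483 to 5494 CPM in S-high cells. Stem cell markers fell for 4 of 6 in both classes, and summed to 197 to 281 CPM in low, 151 to 193 CPM in S-high and 130 to 208 CPM in G2/M-high cells. LMPP markers fell for 6 of 8 in both. Neutrophil markers fell for 7 of 8 in S-high cells and rose for 6 of 8 in G2/M-high cells, where they summed to 1077 to 9711 CPM against 29.6 to 6228 CPM in low cells. Erythroid markers rose for 4 of 6 tested in S-high and 5 of 6 in G2/M-high cells. From low to G2/M-high cells their sum went from 315 to 2115 CPM in the uninduced and from 274 to 1360 CPM in the 6-day library. It was lower in G2/M-high cells of the control (330 to 289.5 CPM) and 3-day (342 to 306 CPM) libraries.

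The fit was therefore repeated on selected cells, each selection but the last chosen after the data were seen. Among cells of 6000 to 10000 UMIs, with 31 of the genes tested, 11 rose and 2 fell in S-high cells, beside 18.4% and 15.2% of all genes in that fit. The 11 were Aars (1.03), Gars, Mars, Wars, Kars, Eprs, Psat1 (1.15), Phgdh, Shmt2, Mthfd2 (2.17) and Slc7a5 (0.76), and the 2 were Atf4 (−0.32) and Cebpb (−0.43). In G2/M-high cells of that range, 3 rose, Mthfd2 (1.49), Psat1 (0.78) and Aars (0.39), and none fell, beside 12% and 12.6% of all genes, so the share of risers was not above the background. The log2 changes of Atf4, Cebpb, Atf5 and Ddit3 were then −0.18, −0.32, −1.04 and 0.25, and 57 to 142 G2/M-high cells remained in a library. Median UMIs still differed in this range, at 6752 to 6903.5 in low, 8238 to 8503 in S-high and 8732 to 9064 in G2/M-high cells. Without cells carrying stem cell markers, 22 of 31 tested genes rose and 4 fell in S-high cells (26.1% and 24.3% of all genes), and 20 and 4 in G2/M-high cells (21.5% and 20.2%). In cells at or below the median immediate-early share, 19 and 4 of 31 did in S-high cells (21.8% and 20.6%), and 17 and 4 in G2/M-high cells (16.5% and 16.4%). Without cells of other lineages the counts stayed at 24 and 5 in S-high cells (28.1% and 26.9% of all genes), and 21 and 5 in G2/M-high cells (23.6% and 23.3%).

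**Figure D5:**
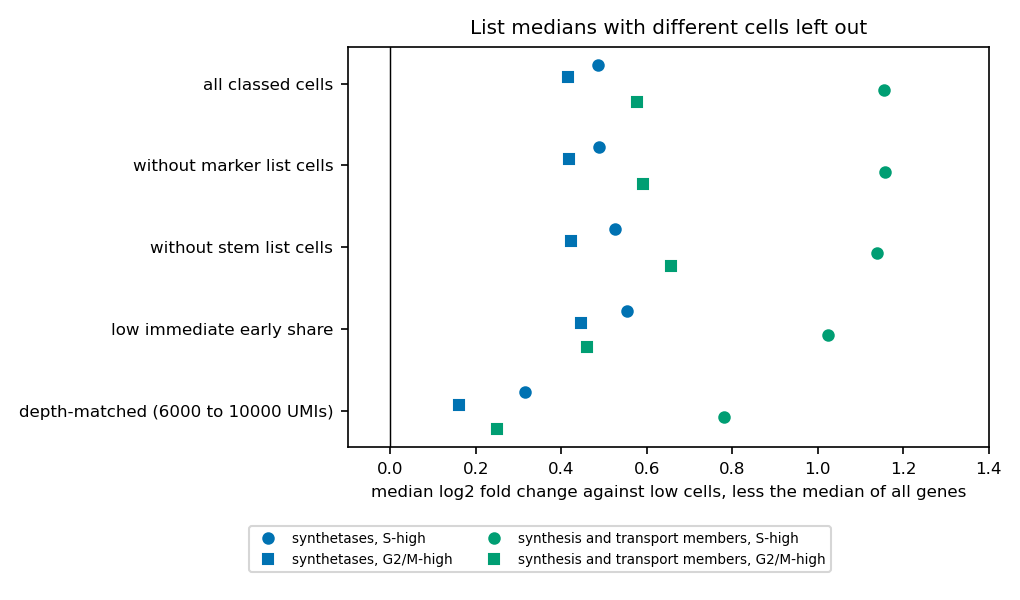
Median log2 change of the synthetases and of the synthesis and transport genes, less the median of all genes, under 5 selections of cells. In depth-matched cells the synthetase median is 0.32 in S-high and 0.16 in G2/M-high cells, and the synthesis and transport median 0.78 and 0.25.

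Several calls lay near the threshold and were lost when a library was left out. In S-high cells, Tars (0.32, adjusted p = 0.0335) passed in 4, Vars (0.19, adjusted p = 0.0407) in 4, Rars (0.31, adjusted p = 0.0278) in 6 and Slc3a2 in 9 of 14 alternative fits. Over those fits the adjusted p ran from 0.00827 to 0.311 for Tars, 0.00213 to 0.517 for Vars, 0.000756 to 0.986 for Rars and 0.000881 to 0.693 for Slc3a2. Tars and Rars did not pass without the uninduced, the 3-day or the 6-day library, Vars without the control, uninduced or 6-day library, and Slc3a2 without the 6-day library. Sesn2 in S-high cells did not pass without the control library (−0.76, adjusted p = 0.075, the highest of 10 alternatives, whose lowest was 2.55e-06). In G2/M-high cells, Hars (0.32, adjusted p = 0.0218) passed in 7 and Slc3a2 (0.17, adjusted p = 0.0305) in 5 of 14 fits, and neither without the control, the 3-day or the 6-day library. Atf5 did not pass there without the control (−0.75), nor Tars without the 6-day library (0.31). For Aars, Psat1 and Mthfd2 all 14 alternatives passed in both classes, and for Atf4 and Cebpb all 14 in S-high and 13 in G2/M-high cells.

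Related gene lists are read against the same shares of all genes, 28.0% higher and 26.5% lower in S-high cells and 23.8% and 22.7% in G2/M-high cells. Of 22 growth genes linked to MYC, 18 rose and 3 fell in S-high cells, with a median less all genes of 0.56 beside 0.48 for the synthetases, and 8 rose and 7 fell in G2/M-high cells. Of 18 genes of endoplasmic reticulum folding and stress, 12 rose and 2 fell in S-high cells and 7 rose and 5 fell in G2/M-high cells. Of 17 mitochondrial synthetases, which charge transfer RNAs in mitochondria, 6 rose and 1 fell in S-high cells and 6 rose and none fell in G2/M-high cells, shares of risers not far from those of all genes. Of 6 further genes of the multi-synthetase complex or cytoplasmic charging, 4 rose and 2 fell in S-high cells, Aimp2 by 0.76 and Qars at −0.40. Of 14 genes of eIF2 and its control, 6 rose and 2 fell in S-high cells and 5 rose and 2 fell in G2/M-high cells. Eif2s1, the alpha subunit of eIF2, rose by 0.83 and 0.42, while Ppp1r15a, which directs eIF2 dephosphorylation, fell by 0.96 and 0.93. Of 17 tested among 27 further listed ATF4 targets, 11 rose and 2 fell in S-high cells, with Shmt1 at 1.84, Pycr1 at 1.83 and Atf3 at −1.06, and 5 rose and 5 fell in G2/M-high cells. Across libraries, none of 12 eIF2 genes at 10 CPM passed 1.5-fold for uninduced against control, and 1 of 15 further targets did, beside 1.45% of all genes. That gene, Atf3, was at 11.8, 48.9, 42.9 and 23.9 CPM in the control, uninduced, 3-day and 6-day libraries.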

How the data were processed

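Single-cell RNA of sorted LMPPs was deposited by the authors as raw UMI counts per gene and barcode and as log2 expression tables of the cells they kept. The deposited log2 values were checked against the counts for 300 genes a library, and 0 were off by over 1e-06, so only the counts of those cells were used. Seurat and build mm10 are named per the submitters' processing notes; the aligner, counter, annotation, strand setting and chemistry end are not given in the sources used here. There were 0 value columns of no group.

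Counts were summed per library, or per library and cell cycle class, as CPM. Library pairs were read by size (1.5-fold on CPM + 1, at 10 CPM or more in either), without a test. Class sums were tested with edgeR 4.0.16 (TMM, filterByExpr, Benjamini-Hochberg over all genes), with DESeq2 1.42.0 as an alternative, in R 4.3.3. Scripts were tested on simulated data. Classes used the 80th percentile of G2/M UMIs (44.6 of 4700) and the 67th of S-phase UMIs (15); low cells had at most 7 S-phase and 12 G2/M UMIs. The members and lists were chosen with earlier results of these data known. Genes named were Atf4, Atf5, Ddit3, Asns, the 3 highest and 3 lowest synthetases between uninduced and control, and the 5 highest and 5 lowest genes between G2/M-high and low cells; others were chosen after values were seen. Nothing in the labels says how many animals a library holds, so p-values measure only the spread between libraries. A further promoter window is not reported here.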

Additional observations from a re-analysis of the deposited data

Results flagged for a closer look

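The change of Tars between S-high and low cells was −0.0375 on the log2 scale in the control library and 0.37, 0.31 and 0.78 in the uninduced, 3-day and 6-day libraries. The change of Vars was −0.246 in the 3-day library and 0.19, 0.41 and 0.18 in the control, uninduced and 6-day libraries. In each case 1 library had the opposite sign to the other 3. These differences between libraries were not tested, because each group has 1 library.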

How the results depend on the processing

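No paired analysis was possible because the library comparisons set 1 library against 1. Among low cells alone, 2 genes passed 1.5-fold for uninduced against control (Tars −0.61 and Ddit4 −0.69), 2 for 3-day against uninduced (Hars −0.64 and Slc7a5 0.77) and 1 for 6-day against uninduced (Ddit4 0.72), beside 5.06%, 10.0% and 4.72% of all genes, and 4 for 6-day against 3-day (11.5%). With a minimum of 2 CPM, or none, 1 gene (Slc7a11, 0.75) passed for 3-day against uninduced, beside 2.64% and 2.43% of all genes. Slc7a11 also lay past that size for 3-day against control (CPM ratio 3.55) and 6-day against 3-day (log2 −0.80). In depth-matched cells, chosen after the data were seen, 13 of 31 genes passed in S-high and 3 in G2/M-high cells, beside 33.6% and 24.6% of all genes, and the medians less all genes were 0.32 and 0.16 for synthetases and 0.78 and 0.25 for synthesis and transport. There Lars was at −0.12 in G2/M-high cells. With stricter class limits or classes from full UMIs the synthesis and transport median in S-high cells was 1.38 and 1.42. Stricter limits left 17 of 32 genes higher and 5 lower in G2/M-high cells (19.9% and 19.2% of all genes). Classes from full UMIs gave 23 and 7 of 34 there (27.5% and 26.5%). Summing thinned counts gave 14 and 4 of 31 in G2/M-high cells (19.5% and 18.3%) and 19 and 4 in S-high cells (25.5% and 23.0%). Mars, Kars, Tars, Hars and Lars were among the calls lost in G2/M-high cells. Without the library block, 20 genes rose and 5 fell in S-high cells (24.5% and 21.7% of all genes) and 19 and 5 in G2/M-high cells (19.3% and 17.7%). DESeq2 gave the same counts, beside 22.7% and 18.6% of all genes in S-high cells and 18.4% and 15.4% in G2/M-high cells. Leaving out 1 library gave 20 to 23 higher and 4 to 5 lower in S-high cells, beside 24.5% to 27.1% and 22.4% to 24.5% of all genes. In G2/M-high cells it gave 18 to 21 and 4 to 5, beside 19.6% to 22.7% and 19.0% to 21.2%. Other causes of these shifts were not tested. Genes under 10 CPM, such as Chac1, Trib3 and Slc7a11, are limited by depth.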
